A study of Mus musculus with 2 samples.

Results

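The genes described here are those of the epidermal differentiation complex, the S100a family and the transglutaminases, compared between 2 mouse lung squamous cell carcinoma (SCC) lines. Members were taken by symbol alone: every probe set of the deposited table that names a single gene and whose symbol is an S100a, Sprr, Lce or Tgm gene, or Lor, Ivl, Flg, Rptn or Crnn. The rule found 41 genes read by 56 probe sets, of 20679 genes and 45101 probe sets in all. Crnn was named by 0 probe sets. Each line gave 1 sample of total RNA on Affymetrix mouse genome arrays. Both lines came from lung SCC of KA/KA mice, which carry a kinase-dead Ikkα knock-in and which the study keeps on an FVB background, so that the mutation is common to both sides of the comparison. S1, described as Sca1-high and more tumorigenic, was read as the study's KALLU+ line (Sca1hi CD24-), and S2, described as Sca1-low, as its KALLU- line (Sca1lo CD24+). Both were sorted from a single KALLU line, and nothing else represents either phenotype here.

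Cornification is the last step of squamous differentiation. Keratinocytes lay down a shell of crosslinked protein, the cornified envelope, beneath the plasma membrane. Involucrin is an early scaffold of this shell, loricrin, the small proline-rich proteins (Sprr) and the late cornified envelope proteins (Lce) are added to it, and transglutaminases crosslink them through glutamine and lysine side chains. Most of these structural genes and the S100a genes, which encode small calcium-binding proteins, lie side by side in the epidermal differentiation complex. Keratin pearls in well-differentiated SCC are cornified cells of this kind, and IKKα is a known regulator of keratinocyte terminal differentiation.

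The deposited table gives 1 signed fold change of S1 over S2 per probe set and no level in either line. A value near 1 may therefore be an equally expressed gene or a gene silent in both lines, and the squamous identity of the cells could not be checked from levels. The labels list 1 sample per line, and the table gives no spread, so no test between the lines was possible, and "lower" and "higher" describe sizes only. For scale, 79 probe sets of olfactory and vomeronasal receptors, genes assumed to be silent here, lay between -0.55 and 0.38 on the log2 scale. The direction carries a doubt: the Sca1 gene Ly6a stood at -2.57, lower in the line labelled Sca1-high, while Cd24a, at -5.73, was lower in the line sorted as CD24-.

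Among the members the differences past 2-fold ran one way. By the median over its probe sets, 5 of 41 genes (12.2%) were at least 2-fold lower in S1, where 5.08% of all genes were, and 0 were at least 2-fold higher, where 4.69% of all genes were. The 5 were S100a8, S100a16, Tgm2, S100a1 and S100a13, in order of size. The other 36 genes had medians between -0.90 and 0.59. The members' median log2 fold change was -0.02, beside -0.04 over all genes, with 19 medians above 0 and 22 below. A median inside the receptor range was found for 31 members (75.6%), close to the 73.8% of all genes. Of the 10 outside it, 7 lay below (the 5 genes named, with Tgm1 and Ivl) and 3 above (Lce1i, S100a10 and S100a5). At the level of probe sets, 12 of 56 were at least 2-fold lower, where 4.72% of all probe sets were, and 0 at least 2-fold higher, where 6.73% were; 5 of the 12 read Tgm2. Among genes with 1 probe set the shares were closer. Of 32 such members, 2 (6.25%) were at least 2-fold lower, beside 5.62% of all such genes, and 0 were higher, beside 3.52%. S100a16, Tgm2 and S100a1 are among the 9 members with more than 1 probe set. Were the labels of the lines exchanged, the 5 genes would be higher in S1 and the background shares would change places with them.

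**Figure D1:**
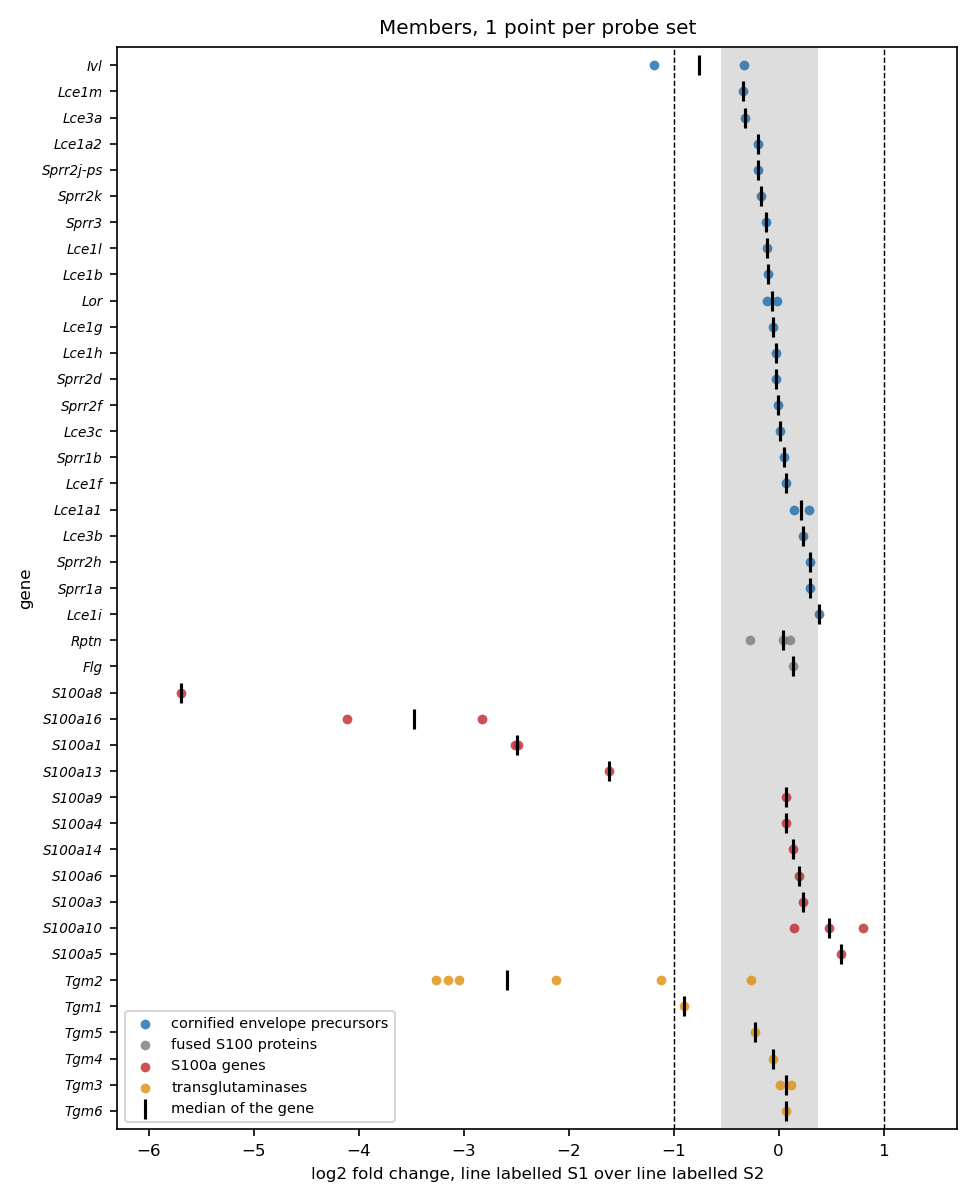
Each point is the log2 fold change of S1 over S2 at 1 probe set of a member, coloured by role, and each black tick is the median of the gene; the grey band is the range of the 79 receptor probe sets (-0.55 to 0.38) and dashed lines mark 2-fold. The points past the left dashed line belong to S100a8, S100a16, S100a1, S100a13, Tgm2 and 1 of the 2 probe sets of Ivl, and no point passes the right one.

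The S100a family held most of the large differences. Of its 11 genes, 4 were at least 2-fold lower in S1 and 0 at least 2-fold higher. Over all genes 5.08% were lower and 4.69% higher. The other 7 were under 2-fold, and the family split into separate sets with no gene between -1.62 and 0.07. S100a8 was 51.8-fold lower at its 1 probe set in the authors' deposited table, a log2 value of -5.69, the 25th lowest of the 45101 probe sets. S100a16 was 17.3-fold and 7.10-fold lower at its 2 probe sets, a median of -3.47. S100a1, best known as a calcium sensor of muscle, was 5.70-fold and 5.59-fold lower at its 2 probe sets, with a median of -2.50 and the narrowest spread of the 3 changed members that had more than 1 probe set. S100a13, a copper-binding protein that takes part in the export of FGF1 and interleukin-1α, was 3.07-fold lower at its 1 probe set, or -1.62.

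The other S100a genes were level or slightly higher in S1. S100a4, a protein of motile and mesenchymal cells, had a log2 value of 0.07. S100a14, an epithelial member, stood at 0.14, and S100a6 at 0.19. The hair cuticle protein S100a3 stood at 0.23. S100a10, which forms a complex with annexin A2 at the plasma membrane, was 1.11-fold, 1.39-fold and 1.74-fold higher at its 3 probe sets, a median of 0.48. S100a5 had the highest value of all members, 1.51-fold or 0.59. No member reached 2-fold upward, although S100a5 would come to 1.01 if values were centred on the poly-A control RNAs.

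S100a8 and S100a9 encode the subunits of calprotectin, a heterodimer that is abundant in neutrophils and is made by keratinocytes under stress. Their values were far apart. S100a9 had a fold change of 1.05 at its 1 probe set, a log2 value of 0.07 inside the receptor range, which lay 5.76 above that of S100a8 on the log2 scale. Without signals it is unknown whether S100a9 was expressed in either line. The S100a8 probe set carries the suffix _s_at, which marks probes shared between several transcripts, and no other probe set reads the gene. Markers of myeloid cells, which make much S100a8, are given beside it: 0 of 9 macrophage genes were 2-fold changed, with medians from -0.44 to 0.59, and of 6 neutrophil genes measured, Camp was lower at -1.71 while the others lay between -0.07 and 0.38. Over all genes, 5.08% were at least 2-fold lower and 4.69% higher. The part of myeloid cells in the value of S100a8 was not tested. In RNA of a whole culture, fewer cells of a type and less RNA per cell cannot be told apart.

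The 250 bases before the start of both genes are shown because this neighbouring pair differed most. They are taken from RefSeq on GRCm38.p6, 5′ to 3′ on the strand of the gene. Capitals mark matches to TGANTCA, the site of AP-1 factors, and to CATG, the core letters of the site of p63; either motif reads the same on both strands.
S100a8 (chr3:90668821-90669070, plus strand): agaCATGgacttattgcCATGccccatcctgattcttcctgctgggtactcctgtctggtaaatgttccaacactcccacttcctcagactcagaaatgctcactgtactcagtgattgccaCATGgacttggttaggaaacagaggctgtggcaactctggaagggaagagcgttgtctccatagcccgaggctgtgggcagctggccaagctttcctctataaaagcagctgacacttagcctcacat
S100a9 (chr3:90695722-90695971, minus strand): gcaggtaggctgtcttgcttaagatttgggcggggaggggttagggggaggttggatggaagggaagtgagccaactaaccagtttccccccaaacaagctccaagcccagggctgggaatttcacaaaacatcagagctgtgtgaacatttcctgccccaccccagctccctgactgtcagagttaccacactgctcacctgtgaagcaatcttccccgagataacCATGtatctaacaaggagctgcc
TGANTCA was found in neither window. CATG was found 3 times before S100a8 and 1 time before S100a9. These letters occur in 53.9% of all 32851 RefSeq promoter windows of this length, so a match is common, and it describes letters only.

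The members were also read in gene order. RefSeq places 34 members among 70 neighbouring protein-coding genes on chromosome 3, from S100a1 to S100a10, and 44 of the 70 have a value. The first 4 genes of that order are S100a1, S100a13, S100a14 and S100a16, of which all but S100a14 were at least 2-fold lower. S100a14 lay 1.76 above S100a13 and 3.61 above S100a16 on the log2 scale, so the values of neighbours inside the run went apart. The S100a14 value, 0.14 at 1 probe set, lay inside the receptor range. Without signals it is unknown whether S100a14 was expressed in either line. S100a8 is the 11th gene of the order, next to S100a9 at 12th. From S100a1 to S100a9, 4 of 10 genes with a value were at least 2-fold lower. Of the 34 genes with a value beyond S100a9, 1 was, and it is no member. Over all genes 5.08% were at least 2-fold lower, so 1 among 34 does not set that stretch apart. The lower gene beyond S100a9 is Crct1, at -2.63, which lies among the Lce genes. All 10 genes of the first stretch are S100a genes. Beyond it, S100a10 is the only S100a member, and S100a7l2, which the rule's symbols do not match, stood at -0.08. This contrast is therefore largely that between the families, and evenness within the family was not tested. The gene models of S100a1 and S100a13 overlap in RefSeq, and the table does not say where their probes lie.

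**Figure D2:**
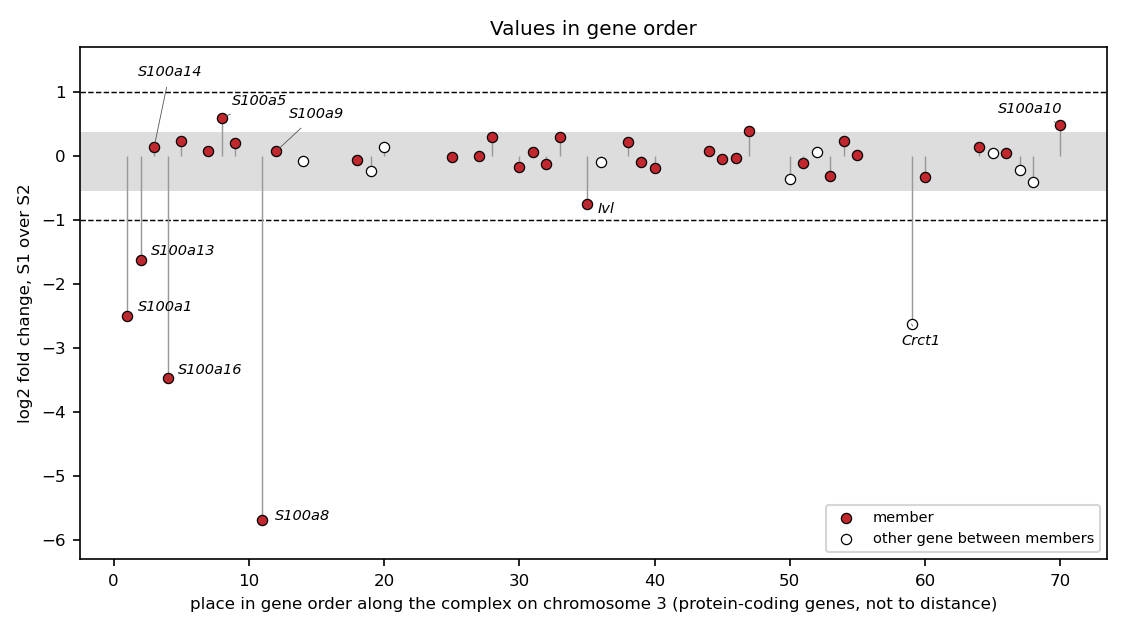
Each point is the median log2 fold change of S1 over S2 of a gene with a value, at its place in the order of 70 protein-coding genes on chromosome 3 (not to distance); red points are members and white points other genes, the grey band is the receptor range and dashed lines mark 2-fold. The low points stand at the left end, S100a1, S100a13, S100a16 and S100a8, and at Crct1, while the Sprr and Lce genes in the middle stay within 2-fold.

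Of 6 transglutaminase genes, 1 was at least 2-fold lower and 0 at least 2-fold higher. Over all genes 5.08% were lower and 4.69% higher. Tgm2, the widely expressed tissue transglutaminase, had 6 probe sets in the authors' deposited table, which were 9.58-fold, 8.87-fold, 8.26-fold, 4.36-fold, 2.17-fold and 1.20-fold lower in S1. All 6 pointed the same way and 5 passed 2-fold, with a median log2 fold change of -2.58, but they ran from -3.26 to -0.26 on the log2 scale, the widest range of any member. The 3 largest and the smallest are _x_at probe sets, whose probes may bind other sequences; the pair without that mark gave a median of -1.62. Tgm1, the membrane-bound enzyme of keratinocytes that crosslinks the envelope, was 1.87-fold lower at its 1 probe set, or -0.90, under 2-fold and outside the receptor range. The other enzyme genes were near level. Tgm3, the epidermal and hair follicle enzyme, had values of 0.02 and 0.12 at its 2 probe sets. Tgm5, which also acts in cornification, stood at -0.22. The prostate enzyme Tgm4 stood at -0.05 and the neural enzyme Tgm6 at 0.07.

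The genes of the envelope's structural proteins differed little in RNA between the lines, with no levels to show whether they were expressed. Of 22 precursor genes, 0 were 2-fold changed in either direction, where 5.08% of all genes were lower and 4.69% higher. Inside the receptor range, which holds 73.8% of all genes, were the medians of 20 precursors (90.9%). Ivl, which encodes involucrin, was the lowest of them, with a median of -0.76. Its 2 probe sets were apart, 1 at 2.27-fold lower and the other at 1.26-fold lower in the authors' deposited table, so that a call at 2-fold depends on which is read. Lor, which encodes loricrin, was level at both probe sets, with log2 values of -0.11 and -0.01. The 8 Sprr genes lay between -0.19 and 0.30 with a median of -0.02, and all 8 were inside the receptor range. The lowest was Sprr2j-ps, annotated as a pseudogene, and the highest Sprr1a. The 12 Lce genes lay between -0.34 for Lce1m and 0.38 for Lce1i, with a median of -0.04. Of the larger proteins that join an S100 domain to long repeats, Flg, which encodes the keratin-bundling filaggrin, had a value of 0.14 and Rptn a median of 0.04 over 3 probe sets.

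**Figure D3:**
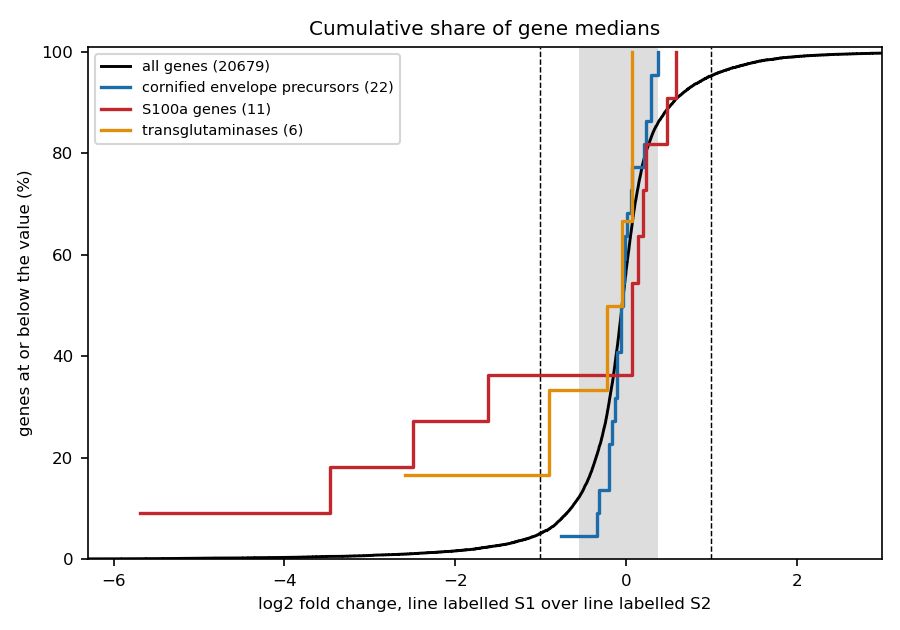
Curves give the share of genes (%, vertical axis) at or below each median log2 fold change of S1 over S2, for all 20679 genes and for 3 groups of members; the grey band is the receptor range and dashed lines mark 2-fold. The S100a curve starts far to the left and reaches 36.4% (4 of 11 genes) before 2-fold lower, beside 5.08% of all genes. The curve of the envelope precursors rises almost wholly inside the band.

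The promoters of the structural genes differed in a sequence feature that the rule did not use. RefSeq's table held windows for 36 of the 41 members; Lce1f, S100a10, S100a14, Sprr2j-ps and Tgm2 were not matched. TGANTCA was present in the 250 bases before the start of 6 of 7 Sprr genes and of all 4 of Ivl, Lor, Flg and Rptn, but of 0 of 11 Lce genes, 1 of 9 S100a genes and 0 of 5 Tgm genes. Over single windows, 11 of 42 (26.2%) held it among the members and 6.75% among all promoters. CATG was present for all 11 Lce genes with a window and for all 4 of Ivl, Lor, Flg and Rptn. It was also present for 5 of 7 Sprr, 6 of 9 S100a and 3 of 5 Tgm genes. Over single windows, 31 of 42 (73.8%) held it among the members and 53.9% among all promoters. The Sprr and Lce genes are families of related copies, so their windows are not independent and these shares are descriptive. The windows of Ivl, Lor and Sprr1a are shown as the envelope genes that hold the AP-1 letters, with capitals as above.
Ivl (chr3:92573736-92573985, minus strand): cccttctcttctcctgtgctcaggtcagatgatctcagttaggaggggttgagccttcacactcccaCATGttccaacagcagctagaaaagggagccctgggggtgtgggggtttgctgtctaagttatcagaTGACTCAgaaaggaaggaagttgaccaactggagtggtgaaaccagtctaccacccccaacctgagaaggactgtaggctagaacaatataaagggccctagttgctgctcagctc
Lor (chr3:92083143-92083392, minus strand): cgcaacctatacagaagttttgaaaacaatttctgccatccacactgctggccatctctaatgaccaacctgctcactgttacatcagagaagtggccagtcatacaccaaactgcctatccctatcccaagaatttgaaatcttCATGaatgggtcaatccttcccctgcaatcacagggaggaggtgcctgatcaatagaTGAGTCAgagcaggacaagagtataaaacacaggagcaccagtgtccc
Sprr1a (chr3:92485882-92486131, minus strand): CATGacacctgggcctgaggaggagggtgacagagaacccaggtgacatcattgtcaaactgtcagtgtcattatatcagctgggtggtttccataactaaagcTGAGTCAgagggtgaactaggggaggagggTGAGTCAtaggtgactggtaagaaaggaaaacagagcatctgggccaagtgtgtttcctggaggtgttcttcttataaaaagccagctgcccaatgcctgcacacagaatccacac
The match begins 116 bases before the start of Ivl and 48 before that of Lor, and Sprr1a holds a pair, at 146 and 116. The log2 values of these 3 genes were -0.76, -0.06 and 0.30. Of the 4 changed members with a window, S100a16 alone held TGANTCA, at 1 of its 2 starts. The letters describe the sequence and do not show that a factor binds there.

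Near-identical copies limited what could be read. A further 9 probe sets name a gene of these families together with other genes and were left out by the rule. None of them was 2-fold changed. They are the sole reading of 10 genes, among them Sprr2a1, Sprr2a2 and Sprr2a3, which share probe sets with log2 values of -0.27 to 0.01, and S100a11, read together with the predicted gene Gm12854 at -0.35.

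Genes that work with the members but fall outside the rule were read from lists. The shares to set beside their counts are 5.08% of all genes at least 2-fold lower and 4.69% higher. Of 7 other genes of the complex with a value, Crct1 was lower and 0 were 2-fold higher. Among S100 genes, S100g, the vitamin D-dependent calbindin, was higher in S1 at 1.59, and S100b stood at 0.77. Both differed in sign from the 4 lower S100a genes and shared the sign of the other 7. F13a1, F13b and Epb4.2, relatives of the transglutaminases, lay between 0.02 and 0.31. Of 26 envelope and corneodesmosome partners, 2 were lower: Sbsn, which encodes the keratinocyte protein suprabasin, at -2.97 with 3 probe sets between -3.33 and -0.68, and Ppl, the envelope protein periplakin, at -1.07. Neither call held throughout: Ppl came to -0.65 when centred on the poly-A controls, and the 1 probe set of Sbsn without a suffix is the one at -0.68. Anxa1, a calcium-dependent membrane protein that transglutaminase crosslinks, was higher at 1.69. Of 12 lipid barrier genes 0 were 2-fold changed.

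Regulators of keratinocyte differentiation went both ways. Of 23 genes, 3 were lower and 1 higher. Cebpb stood at -1.76, the vitamin D receptor Vdr at -1.76 and Hopx at -1.07, which came to -0.66 when centred on the poly-A controls and -0.91 without _s_at and _x_at probe sets, both under 2-fold, whereas Klf4, a factor needed for the skin barrier, stood at 3.40. Trp63, which encodes p63, had a median of -0.09 over 4 probe sets, and Chuk, which encodes IKKα, 0.51 over 3. Among 15 partners and receptors of S100 proteins and TG2, the heparan sulphate proteoglycan Sdc4 was lower at -1.52 and the urokinase receptor Plaur higher at 1.03. Anxa2, the partner of S100a10, stood at 0.05 beside 0.48 for S100a10. Cacybp, which binds S100a6, stood at 0.92 beside 0.19. Fn1, the fibronectin that binds TG2 at the cell surface, stood at -0.92.

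**Figure D4:**
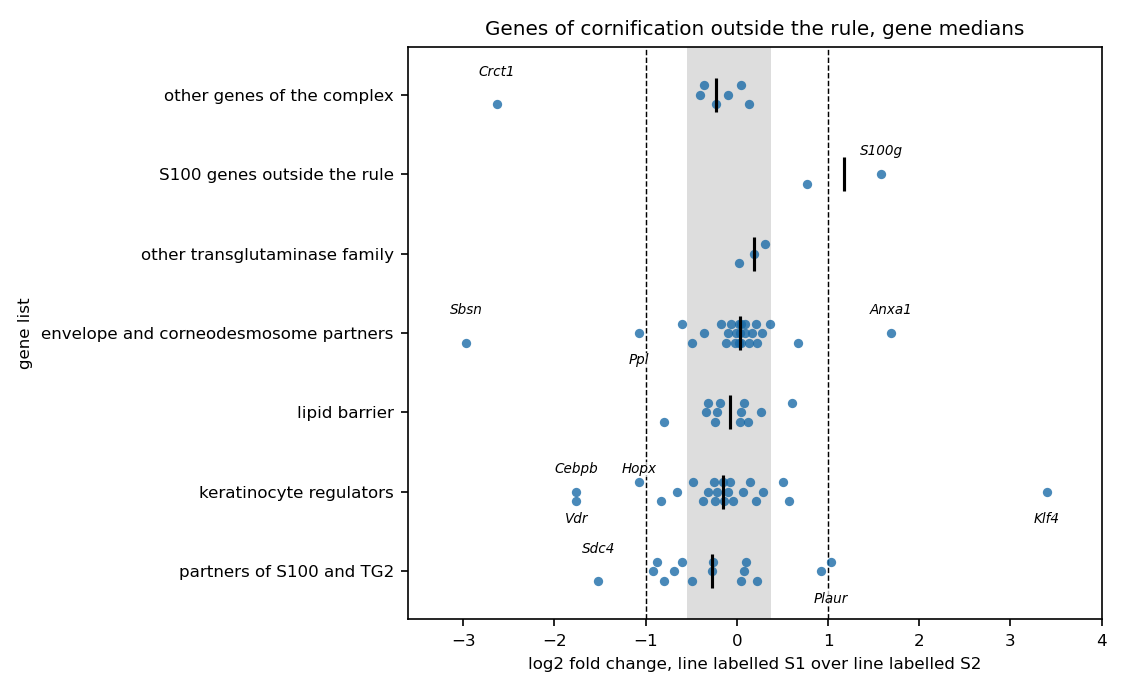
Each point is the median log2 fold change of S1 over S2 of a gene in 1 of 7 lists of genes outside the rule, black ticks are list medians, the grey band is the receptor range and dashed lines mark 2-fold; genes past 2-fold are named. Crct1, Sbsn, Ppl, Cebpb, Vdr, Hopx and Sdc4 lie to the left and S100g, Anxa1, Klf4 and Plaur to the right.

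Markers of cell types were read beside these values, again with 5.08% of all genes at least 2-fold lower and 4.69% higher. Of 10 squamous and basal genes with a value, Perp, a desmosomal p53 target, was lower at -1.17 and 0 were higher; the list's median was -0.02, with Krt5 at -0.07, Krt14 at 0.36 and Cdh1 at -0.07. Of 8 fibroblast genes, Col3a1 at -2.23 and Pdgfrb at -1.16 were lower and 0 were higher, with a median of -0.68. The 6 endothelial genes lay between -0.37 and 0.31. The other 6 fibroblast genes were under 2-fold, with Dcn at 0.42, Thy1 at 0.17 and Col1a2 at -0.11, so the list did not move as 1. Fibroblasts also express Tgm2, which was lower in the same line as Col3a1 and Pdgfrb, and the part of such cells in that difference was not tested. Centred on the poly-A controls, Perp came to -0.75 and Pdgfrb to -0.74, under 2-fold.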

How the data were processed

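RNA from 2 cell lines was hybridised to Affymetrix mouse genome arrays, with 1 sample per line in the labels. The study's methods name Partek Genomics Suite for the analysis, and the submitters' processing notes name MAS5; background correction, normalization and the number of arrays are not given in the sources used here. The authors deposited 1 signed linear fold change per probe set (a score with a minus sign where S1 is lower; 0 values lie between -1 and 1), S1 over S2. These are the authors' own comparison, used because nothing else was given; they carry no signals, p-values or spread, so precision is unknown.

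Fold changes were put on the log2 scale with their sign. Probe sets naming no gene (5797) or several (1280) were left out of gene values, and each gene was given the median of its probe sets. Genes were counted at 2-fold. Steps were tested on simulated data. Named were members past 2-fold, all Tgm genes, Ivl, Lor, Flg and list genes past 2-fold. Other members were named to account for all 41. Some list and marker genes under 2-fold, such as Fn1, Cacybp and S100b, were named by choice and not by a rule, while others of their size were not. Members, lists, motifs, receptor range and alternatives were chosen with earlier results of these data known. Gene order and promoters came from RefSeq (GRCm38.p6), where 40 members matched a gene; the deposited table holds no coordinates. The promoters printed were picked after values and matches had been seen. Alternatives were 1.5-fold and 4-fold thresholds, other rules over probe sets, and centring on all probe sets or on 27 bacterial control probe sets. Python 3.11.15, numpy 2.4.6, pandas 2.3.3 and matplotlib 3.10.9 were used.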

Additional observations from a re-analysis of the deposited data

How the results depend on the processing

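No paired analysis was possible because each line has 1 sample and no values per sample are given. The count of 5 members at least 2-fold lower ranged from 4 to 7 under 8 of the 9 alternatives, among them leaving out _s_at and _x_at probe sets, which was added after seeing the data and gave 4. Restricted to probe sets without any suffix it was 2 (S100a1 and S100a13) of 30 members left, since S100a8, S100a16 and Tgm2 have none. The count of 0 at least 2-fold higher became 1 at 1.5-fold and 1 on the bacterial controls, S100a5 in both. The shares over all genes were not computed under the alternatives. These counts therefore do not show whether the difference from all genes held. For 2 members the log2 value shifted beyond 0.49, the SD among probe sets that share a gene: S100a16 and Tgm2 were -4.11 and -3.26 by the largest probe set, and -2.83 and -1.62 without _s_at and _x_at probe sets. Outside the members, Hopx, Ppl, Perp and Pdgfrb fell under 2-fold on the bacterial controls, Hopx also without _s_at and _x_at probe sets, and Sbsn without any suffix; Sbsn was -2.33 by the mean over probe sets and -2.01 without _s_at and _x_at probe sets. No member past 2-fold changed sign under any alternative that left it a value.

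Centring on the bacterial controls raises every log2 value by 0.42 by construction, so most medians turn positive. The medians were then 0.39 for all members, 0.48 for S100a, 0.39 for Sprr and Lce and 0.28 for Tgm genes; 0.19 for other genes of the complex, 1.59 for other S100 genes, 0.61 for F13a1, F13b and Epb4.2, 0.45 for envelope partners, 0.34 for lipid barrier genes, 0.27 for regulators and 0.15 for S100 and TG2 partners. Among markers they were 0.39 for squamous, -0.27 for fibroblast, 0.37 for macrophage, 0.42 for neutrophil, 0.51 for endothelial and -2.16 for sorting genes. By the largest probe set, which takes each gene's value farthest from 0, the partners' median was -0.50, from -0.27. Under it Tlr4, for example, stood at -0.63, beside a median of 0.08 over its 4 probe sets. Without signals, what brightness limits is unknown.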
